A study of Mus musculus with 4 samples.

Results

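The 6 genes described here encode membrane transporters that load, take up or supply glutamate, the transmitter of primary sensory neurons. They are Slc17a6, Slc17a7, Slc17a8, Slc1a1, Slc1a2 and Slc38a1, taken by symbol from a table of 56035 gene rows, and each symbol matched 1 row. RNA came from trigeminal ganglia of male mice, C57BL/6 and 8 weeks old. The K823R group (2 libraries) carried a knock-in allele of Trpv1 in which the lysine codon was replaced by an arginine codon, called transgenic in the labels. The WT group (2 libraries) was wild-type littermates. The number of animals per library is not in the labels, so p-values speak only of the scatter among these libraries, and that scatter may be technical. Values are TPM, a transcript abundance per unit of transcript length, with the same total in every library. The read depth behind them is unknown.

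Sensory neurons of the ganglion release glutamate from their terminals. Vesicular glutamate transporters (VGLUTs) move it into synaptic vesicles, driven by the gradient that a proton pump builds across the vesicle membrane. Excitatory amino acid transporters (EAATs) at the cell surface take released glutamate up again, and in glia glutamine synthetase turns it into glutamine. Glutamine carriers return that glutamine to neurons, where glutamate is made from it.

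In GRCm38 the VGLUT2 gene Slc17a6 (ENSMUSG00000030500) lies on chromosome 7 from 51622006 to 51671119, plus strand. The VGLUT1 gene Slc17a7 (ENSMUSG00000070570) lies on the same strand of that chromosome from 45163949 to 45176142, 6445863 bases away. The VGLUT3 gene Slc17a8 (ENSMUSG00000019935) lies on chromosome 10 from 89574020 to 89621253, minus strand. Slc1a1 (ENSMUSG00000024935), which encodes the neuronal glutamate transporter EAAT3, lies on chromosome 19 from 28835049 to 28913960, plus strand. Slc1a2 (ENSMUSG00000005089), which encodes the mainly astrocytic transporter EAAT2, also called GLT-1, lies on chromosome 2 from 102658659 to 102790784, plus strand. Slc38a1 (ENSMUSG00000023169), which encodes the glutamine carrier SNAT1, lies on chromosome 15 from 96571418 to 96642913, minus strand. Its paralog Slc38a2 starts 44478 bases further along.

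The transporters come in families, so the coding sequences were compared to see whether coding reads of one gene could be counted for another. Bases outside the coding sequence were not compared. Coding bases made up 94.4% of the Slc17a7 transcript used, but only 14.8% to 42.2% of the transcripts of the other transporters. The coding sequences of Slc17a6 and Slc17a7 were identical at 72.1% of 1653 aligned bases, and their longest identical run was 21 bases. The corresponding values were 71.0% and 25 bases for Slc17a6 and Slc17a8, and 70.2% and 17 bases for Slc17a7 and Slc17a8. A read of 150 bases, the length in the labels, would meet at least 23 mismatches in any gapless window of these 3 pairs. The most alike stretch of Slc17a6 and Slc17a7, in exon 2 of each, is shown with its counterpart in exon 2 of Slc17a8 because Slc17a6 and Slc17a7 are the abundant VGLUT genes; the closest stretch of Slc17a7 and Slc17a8 lies elsewhere, in exons 12 and 13 of Slc17a7. Capitals mark the 22 of 90 bases that are not the same in all 3 genes, and each sequence is on the coding strand, 5′ to 3′.
Slc17a6 (GRCm38 chr7:51625402-51625491, plus strand): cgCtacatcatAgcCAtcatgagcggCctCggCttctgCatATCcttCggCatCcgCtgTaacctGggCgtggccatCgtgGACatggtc
Slc17a7 (GRCm38 chr7:45168836-45168925, plus strand): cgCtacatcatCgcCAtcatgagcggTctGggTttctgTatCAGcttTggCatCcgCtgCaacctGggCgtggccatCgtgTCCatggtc
Slc17a8 (GRCm38 chr10:89606619-89606708, minus strand): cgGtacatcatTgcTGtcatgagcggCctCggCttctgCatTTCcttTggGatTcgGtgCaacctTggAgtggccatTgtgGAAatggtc

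The surface transporters and glutamine carriers were less alike than the VGLUTs. Slc1a1 and Slc1a2 were identical at 61.6% of aligned coding bases, with 15 bases as the longest identical run and at least 41 mismatches in 150 bases. Slc1a2 and its relative Slc1a3 were slightly closer, at 62.6%, with 17 bases as the longest run and at least 39 mismatches in 150 bases. Slc38a1 and Slc38a2 were identical at 61.5%, with 17 bases as the longest run and at least 44 mismatches in 150 bases. The most alike stretches of Slc1a1 with Slc1a2 and of Slc38a1 with Slc38a2 are shown. Capitals mark the 19 of 90 bases that differ between Slc1a1 and Slc1a2, and the 20 of 90 that differ between Slc38a1 and Slc38a2.
Slc1a1 (exon 10, GRCm38 chr19:28905400-28905489, plus strand): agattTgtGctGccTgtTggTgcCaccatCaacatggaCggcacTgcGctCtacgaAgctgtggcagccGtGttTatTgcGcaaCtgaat
Slc1a2 (exon 8, GRCm38 chr2:102761082-102761171, plus strand): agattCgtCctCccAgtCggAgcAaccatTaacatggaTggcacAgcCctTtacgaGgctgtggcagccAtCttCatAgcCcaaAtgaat
Slc38a1 (exon 4, GRCm38 chr15:96609880-96609969, minus strand): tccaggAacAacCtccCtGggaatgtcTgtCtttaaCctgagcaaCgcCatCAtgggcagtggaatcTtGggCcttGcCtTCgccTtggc
Slc38a2 (exon 4, GRCm38 chr15:96697946-96698035, minus strand): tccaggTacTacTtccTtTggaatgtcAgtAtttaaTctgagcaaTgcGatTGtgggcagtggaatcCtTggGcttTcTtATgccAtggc

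The ganglion held 2 abundant VGLUT transcripts and much lower levels of the surface transporters. Per transcript length, Slc17a7 had the highest mean level over the 4 libraries at 113 ± 11.9 TPM (SD, n = 4), above 90.2% of the 15390 genes tested. Slc17a6 followed at 89.7 ± 4.57 TPM and Slc38a1 at 20.7 ± 1.47 TPM. Slc1a1 was at 4.28 ± 0.304 TPM, Slc17a8 at 2.64 ± 0.241 TPM and Slc1a2 at 1.54 ± 0.574 TPM, above only 6.09% of genes. No neighbours in this order overlapped: the lowest Slc17a7 library (104.97 TPM) was above the highest Slc17a6 library (95.68 TPM), and the lowest Slc17a8 library (2.29 TPM) above the highest Slc1a2 library (2.10 TPM).

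The order of the closest neighbours depends on transcript length. The table lists 1860 bases for Slc17a7, the length of the shorter of its 2 coding transcripts in GENCODE M21, and whether this length entered the TPM is not given in the sources used here. At the 2915 bases of the longer one, the same reads would give a mean of 71.9 TPM, below Slc17a6, a level ratio of 0.802 in place of 1.26. For Slc1a2 the table lists 11595 bases, of which 14.8% are coding. At 2127 bases, its second longest coding transcript, the mean would be 8.41 TPM, above Slc1a1. These rescalings were chosen after the data were seen, and they take every read as coming from the other transcript, which was not tested. TPM values do not show where along a transcript the reads fell. Every library is multiplied alike, so a gene's TPM ratio between the groups is not altered. The log2(TPM + 1) differences below use the listed lengths. A rescaling would alter them, mainly for low genes such as Slc1a2, since 1 TPM is added.

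**Figure D1:**
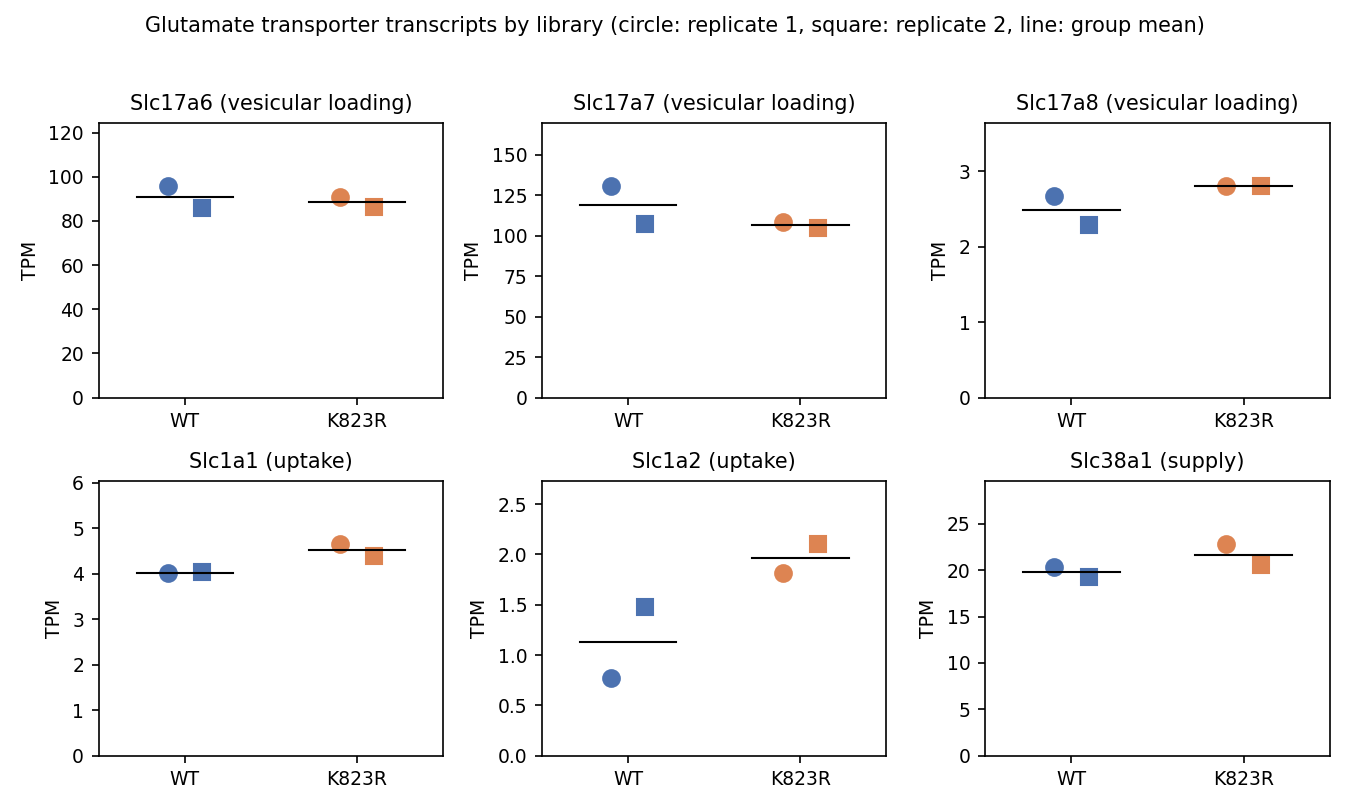
TPM of the 6 transporter genes in each library, with a vertical axis from 0 in each panel, circles for replicate 1, squares for replicate 2 and a line at the group mean. The groups overlap for Slc17a6 and Slc17a7, and both knock-in libraries lie above both WT libraries for Slc17a8, Slc1a1, Slc1a2 and Slc38a1. Relative to the gene's level, the group means are furthest apart for Slc1a2.

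Of the 6 transporters 0 passed the test between genotypes, in which limma compared log2(TPM + 1) over the 15390 genes that averaged 1 TPM or more. The threshold was a Benjamini-Hochberg adjusted p of 0.05, and 0 of the 6 had an unadjusted p under 0.05 either. All 6 were among the genes tested. Over all genes 0.0065% (1 gene, higher in K823R) passed the adjusted threshold and 4.76% had an unadjusted p under 0.05. For 4 of the 6 transporters both K823R values exceeded both WT values, which held for 19.4% of all genes tested. For 0 of the 6 both K823R values were below both WT values, which held for 14.6% of all genes. The members were chosen with earlier results of these data known, so these counts are a description. The median log2 difference was 0.13 for the 6 transporters and 0.026 for all genes, K823R minus WT.

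Slc17a6, whose product VGLUT2 loads vesicles in most sensory neurons including nociceptors, showed a smaller gap between the genotypes than between the WT libraries. WT libraries held 95.68 and 85.79 TPM, K823R libraries 90.76 and 86.46 TPM. Both K823R values lay between the WT values. K823R minus WT came to -0.032 on the log2 scale (standard error, SE, 0.087; 95% confidence interval -0.26 to 0.20; limma adjusted p = 0.977). It changed sign without WT replicate 1 (0.046) and without K823R replicate 2 (0.0025).

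Slc17a7, whose product VGLUT1 is known from large myelinated mechanosensory and proprioceptive neurons, had its highest value in a single WT library. WT libraries held 130.51 and 107.31 TPM, K823R libraries 108.20 and 104.97 TPM. WT replicate 1 was the high one, and the other 3 libraries lay within a few TPM of each other. The log2 difference, K823R minus WT, was -0.15 (SE 0.11, 95% interval -0.45 to 0.15, limma adjusted p = 0.918). Without WT replicate 1 it was -0.0099, and without WT replicate 2 it was -0.29.

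Slc17a8, whose product VGLUT3 marks low-threshold C-fibre mechanoreceptors among sensory neurons, was scarce. WT libraries held 2.67 and 2.29 TPM, and each K823R library 2.80 TPM. The gap between the groups was smaller than the gap between the WT libraries. K823R minus WT came to 0.13 on the log2 scale (SE 0.18, 95% interval -0.34 to 0.60, limma adjusted p = 0.941).

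As a share of the summed VGLUT TPM, no VGLUT gene moved by more than a few percentage points between libraries, but which gene held the larger share depended on transcript length. Slc17a7 made up 57.0% and 54.9% in WT and 53.6% and 54.0% in K823R. Slc17a6 made up 41.8% and 43.9% in WT and 45.0% and 44.5% in K823R. With Slc17a7 at its longer transcript, Slc17a6 would be the larger share in every library, at 52.7% and 54.8% in WT and 55.8% and 55.3% in K823R, and Slc17a7 would make up 42.5% to 45.9%. Slc17a8 made up 1.17% in both WT libraries and 1.39% and 1.44% in K823R. The ratio of Slc17a7 to Slc17a6 was 1.31 ± 0.080 in WT and 1.20 ± 0.016 in K823R (SD, n = 2 each). With 2 libraries a group, an exact permutation test of a single ratio cannot give a two-sided p under 0.333, and none was run. Summed, the VGLUT level averaged 212 ± 23.7 TPM for WT and 198 ± 5.32 TPM for K823R (SD, n = 2 each).

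Markers of the neurons that use these transporters also differed little between the genotypes. The 12 pan-neuronal markers had a median log2 difference of 0.017, with 7 higher, 5 lower and 0 past limma's adjusted threshold. They summed to 17388 and 15150 TPM (WT) and to 16710 and 16171 TPM (K823R), and WT replicate 1 was highest, as it was for Slc17a6 and Slc17a7. The ubiquitin hydrolase gene Uchl1 averaged 4422 TPM in the WT group and 4402 TPM in the K823R group, and the neurofilament gene Nefl 2732 and 2762 TPM. When each library was scaled to its pan-neuronal markers, the log2 difference was -0.052 for Slc17a6, -0.17 for Slc17a7 and 0.12 for Slc17a8, and 0 of them passed.

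Markers of myelinated sensory neurons, the class tied to VGLUT1, were lower in K823R for 7 of 9 genes, with a median log2 difference of -0.069 and 0 past the adjusted threshold. For 4 of the 9 both K823R values were below both WT values. The 9 markers include 1, Ldhb, with both K823R values above both WT values, and the shares over all genes were 14.6% below and 19.4% above. The lower ones include the calcium-binding protein gene Necab2 (means of 17.2 and 14.9 TPM, log2 difference -0.20) and the neurotrophin receptor gene Ntrk2 (52.9 and 47.5 TPM, -0.15), named after their values were seen. The most abundant markers were the 2 that were higher: the heavy neurofilament gene Nefh at means of 1112 and 1150 TPM and the lactate dehydrogenase gene Ldhb at 943 and 958 TPM (WT, then K823R). The 4 low-threshold C-fibre markers with a row in the table had a median of -0.053, with 1 higher, 3 lower and 0 past the adjusted threshold. The higher one was Tafa4, at means of 18.7 and 21.1 TPM (log2 difference 0.17), and Th had the widest difference (-0.26). Of the lower ones the GDNF-family receptor gene Gfra2 was at means of 66.4 and 66.2 TPM and the purinergic receptor gene P2ry1 at 24.6 and 22.9 TPM. In whole ganglia, the number of neurons of a class, the RNA per neuron and the share of RNA from other cells cannot be told apart. Every library has the same TPM total, and no cause was tested. The brainstem neuron markers (Gad1, Gad2, Slc32a1, Slc6a5 and Chat), for inhibitory and cholinergic neurons of the adjoining hindbrain, summed to between 0.53 and 0.64 TPM in every library, and Chat was listed at 0 in all 4.

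The plasma membrane transporter of neurons was slightly higher in both K823R libraries without passing the test. For Slc1a1, WT libraries held 4.02 and 4.04 TPM, K823R libraries 4.65 and 4.40 TPM. The WT libraries were nearly equal, and the groups did not overlap. The log2 difference, K823R minus WT, was 0.14 (SE 0.14, 95% interval -0.23 to 0.50, limma adjusted p = 0.935). Without any one library it ran from 0.10 to 0.17.

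Slc1a2 had the widest log2 difference of the 6 transporters, with the widest interval and, at the length listed in the table, the lowest level. WT libraries held 0.77 and 1.48 TPM, K823R libraries 1.82 and 2.10 TPM. WT replicate 1 was well below the other 3 libraries, and the groups did not overlap. K823R minus WT came to 0.50 on the log2 scale (SE 0.27, 95% interval -0.22 to 1.22, limma adjusted p = 0.918). Without WT replicate 1 the difference was 0.25, and without WT replicate 2 it was 0.74. With a pseudocount of 0.1 TPM it was 0.81, since adding 1 TPM compresses differences at this level.

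Markers listed for astrocytes and oligodendrocytes, glia of the central nervous system, were mostly lowest in the same library. In that library Mlc1, Slc4a4, Hepacam and Aspa were near their values elsewhere, and the cells these came from were not tested. The 10 astrocyte markers summed to 69.1 and 139 TPM (WT) and to 160 and 157 TPM (K823R), with 8 of 9 tested genes higher in K823R and a median log2 difference of 0.34. Without Gfap the other 9 summed to 65.4 and 78.8 TPM (WT) and to 90.3 and 85.5 TPM (K823R). Agt, Slc7a10 and Slc4a4 were not lowest in WT replicate 1, and Slc4a4 was lower in both K823R libraries. The filament gene Gfap of astrocytes stood at 3.72 and 60.26 TPM (WT) and at 69.32 and 71.14 TPM (K823R). The adhesion gene Hepacam stood at 16.74 and 17.79 TPM (WT) and at 18.58 and 20.57 TPM (K823R). The 8 oligodendrocyte markers summed to 52.3 and 208 TPM (WT) and to 229 and 283 TPM (K823R), with 5 of 6 tested genes higher and a median log2 difference of 1.69. In WT replicate 1 the myelin gene Mobp stood at 2.31 TPM, against 113 to 178 TPM elsewhere, and Mog, Opalin and Olig2 were listed at 0. The aspartoacylase gene Aspa was at 48.08 TPM in that library and between 50.94 and 61.74 TPM in the others. Of the 2 lists 0 genes passed limma's adjusted threshold. An unadjusted limma p below 0.05 was reached by 1 astrocyte and 0 oligodendrocyte genes, beside 4.76% of all genes tested. The astrocyte median was 0.14 when WT replicate 1 was left out. The part of central glia in the Slc1a2 values was not tested.

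Satellite glia, which wrap the neurons of the ganglion itself, did not share that pattern. Their 6 markers had a median log2 difference of 0.016, with 3 higher and 3 lower, and summed to 10553 and 10324 TPM (WT) and to 10345 and 11554 TPM (K823R). The lipid carrier gene Apoe made up most of that sum, averaging 10062 TPM for WT and 10591 TPM for K823R. The fatty acid binding protein gene Fabp7 stood at 199.27 and 279.88 TPM (WT) and at 165.40 and 271.29 TPM (K823R). The 2 markers with an unadjusted limma p below 0.05 went opposite ways, beside 4.76% of all genes tested. Cdh19 was lower in K823R (log2 difference -0.30, limma adjusted p = 0.918) and Atp1b2 higher (0.23, limma adjusted p = 0.918). Other non-neuronal lists were lowest in WT replicate 1, with sums of 242 TPM for 7 fibroblast markers against 439 to 506 TPM elsewhere, and of 52.3 TPM for 7 macrophage markers against 83.3 to 115 TPM. All 7 fibroblast markers had a positive log2 difference (median 0.39), as did all 7 macrophage markers (0.55), beside 57.4% of all genes tested. Of them 0 passed limma's adjusted threshold. Both K823R values exceeded both WT values for only 3 of 7 markers in each list, beside 19.4% of all genes. The fibroblast sum was highest in WT replicate 2, at 506 TPM. The 8 myelinating Schwann cell markers summed to 8904 TPM in WT replicate 1 against 10185 to 12293 TPM, with 7 of 8 higher, a median of 0.22 and 0 past the threshold. Limma's unadjusted p was below 0.05 for 1 fibroblast, 2 macrophage and 1 Schwann cell marker, beside 4.76% of all genes tested. The part of these cells in the Slc1a2 values was not tested either.

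**Figure D2:**
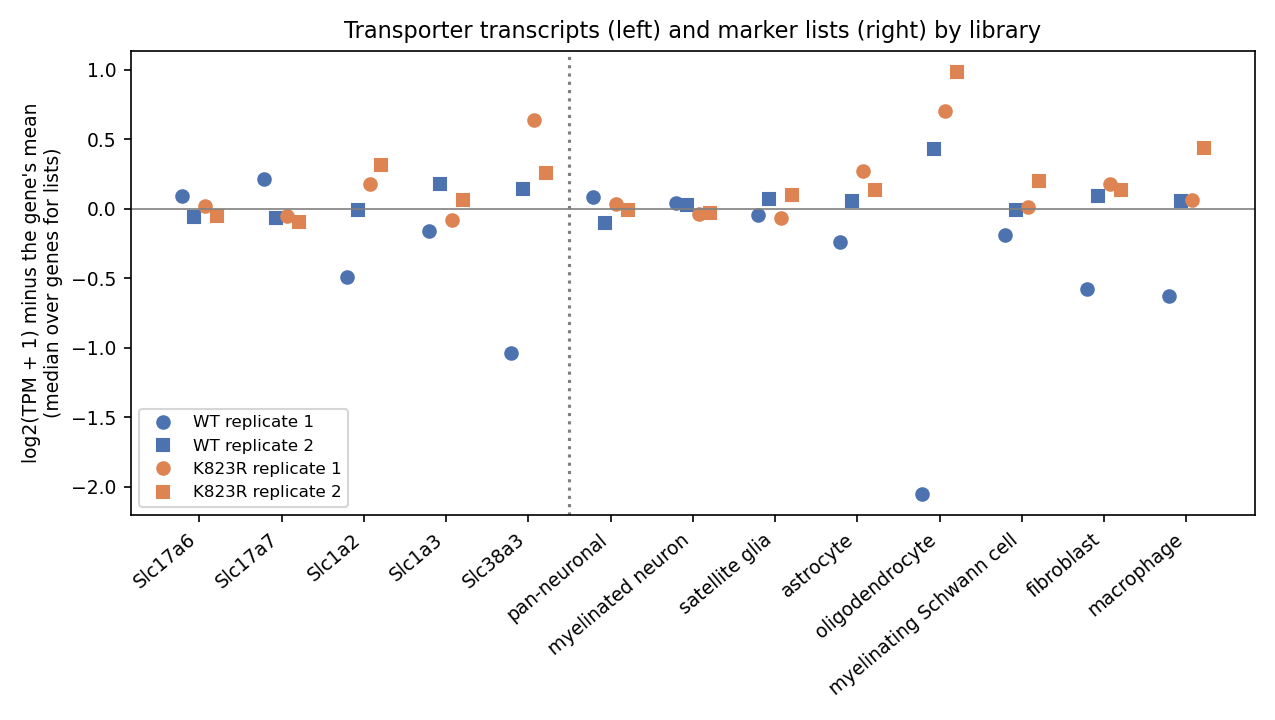
For each library, log2(TPM + 1) minus the gene's mean over the 4 libraries (vertical axis) for 5 transporter genes, and the median of the same quantity over the genes of 8 marker lists. WT replicate 1 is the lowest library for Slc1a2, Slc1a3, Slc38a3 and the astrocyte, oligodendrocyte, Schwann cell, fibroblast and macrophage lists. It is the highest for Slc17a6, Slc17a7 and the pan-neuronal and myelinated neuron lists, the last by a small margin over WT replicate 2.

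Slc1a3 encodes the glial transporter EAAT1 (GLAST) of satellite glia and astrocytes. It had the highest mean TPM of the EAAT genes at the listed lengths, and its groups overlapped, with WT replicate 1 again the lowest library. WT libraries held 9.11 and 11.78 TPM, K823R libraries 9.66 and 10.77 TPM, with -0.021 on the log2 scale for K823R minus WT (SE 0.16, 95% interval -0.43 to 0.39, limma adjusted p = 0.992). As a share of the summed TPM of Slc1a1, Slc1a2 and Slc1a3, Slc1a3 made up 65.5% and 68.1% in WT and 59.9% and 62.4% in K823R. Slc1a2 made up 5.54% and 8.55% in WT and 11.3% and 12.2% in K823R. If every Slc1a2 read came from the 2127-base transcript, which was not tested, Slc1a2 would make up 24.2% and 33.8% in WT. In K823R it would make up 40.9% and 43.0%, the largest share in both libraries. At the listed lengths the sum of these 3 genes averaged 15.6 ± 2.40 TPM for WT and 16.7 ± 0.806 TPM for K823R (SD, n = 2 each), a difference smaller than the spread between the WT libraries. On the same untested assumption about Slc1a2 reads, the sum would be 17.3 and 23.9 TPM (WT) and 24.2 and 26.6 TPM (K823R). The groups would not overlap then, so whether they overlap depends on which transcript the reads came from. The other EAAT genes were left out of the sum: Slc1a6 (EAAT4) averaged 2.55 TPM for WT and 2.64 TPM for K823R, and Slc1a7 (EAAT5) was at 0.10 TPM or less in every library. Slc1a5, which encodes the neutral amino acid exchanger ASCT2 of the same family and carries glutamine, stood at 32.60 and 27.41 TPM (WT) and at 28.43 and 24.88 TPM (K823R; log2 difference -0.16, SE 0.13, limma adjusted p = 0.918), and its groups overlapped.

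Slc38a1, whose product SNAT1 brings glutamine into neurons, was also slightly higher in both K823R libraries. WT libraries held 20.31 and 19.30 TPM, K823R libraries 22.78 and 20.53 TPM. The groups did not overlap, but the higher WT and the lower K823R library were closer to each other than the 2 libraries of either group. The log2 difference, K823R minus WT, was 0.12 (SE 0.098, 95% interval -0.14 to 0.38, limma adjusted p = 0.918). It was 0.050 without K823R replicate 1 and 0.19 without K823R replicate 2.

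Slc38a2, the gene of the related carrier SNAT2 next to Slc38a1 on chromosome 15, was several times more abundant. WT libraries held 119.11 and 105.78 TPM, K823R libraries 128.22 and 107.77 TPM (log2 difference 0.07, SE 0.12, limma adjusted p = 0.958). Slc38a1 made up 14.5% and 15.1% of the summed TPM of Slc38a1, Slc38a2 and Slc38a3 in WT and 14.7% and 15.7% in K823R. Slc38a3, which encodes the glial glutamine carrier SNAT3, stood at 0.56 and 2.54 TPM (WT) and at 4.01 and 2.83 TPM (K823R). WT replicate 1 was again the lowest library, and without it the log2 difference fell from 0.90 (SE 0.45, limma adjusted p = 0.918) to 0.31. Slc38a7, a glutamine carrier of lysosomes, stood at 16.14 and 15.95 TPM (WT) and at 18.85 and 18.95 TPM (K823R). Replicates of Slc38a7 were close within each group, with a log2 difference of 0.22 (SE 0.086, 95% interval -0.0030 to 0.45, limma adjusted p = 0.918).

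Across 42 other genes of glutamate handling, 39 were tested, 27 were higher and 12 lower in K823R, and 0 passed the adjusted threshold. Their median log2 difference was 0.054, against 0.026 for all genes, of which 57.4% were higher. Both K823R values exceeded both WT values for 8 of the 39 genes and were below them for 1, beside 19.4% and 14.6% of all genes. The count of 27 rested on WT replicate 2, without which 15 of the 39 were higher and the median was -0.015. All genes shifted with the same omission, to 49.3% higher and a median of -0.0022. The 13 genes of the vesicular proton pump and vesicle acidification, which power the VGLUTs, had the smallest differences, between -0.032 and 0.10, with 9 higher and 4 lower. Of 5 mitochondrial carriers 3 were higher, and the aspartate-glutamate carrier gene Slc25a12 averaged 124 ± 10.5 TPM for WT and 113 ± 5.71 TPM for K823R (SD, n = 2 each; log2 difference -0.13, limma adjusted p = 0.918). Slc1a7, Slc7a11 and Slc38a5 were below the filter, with no library above 1.08 TPM.

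**Figure D3:**
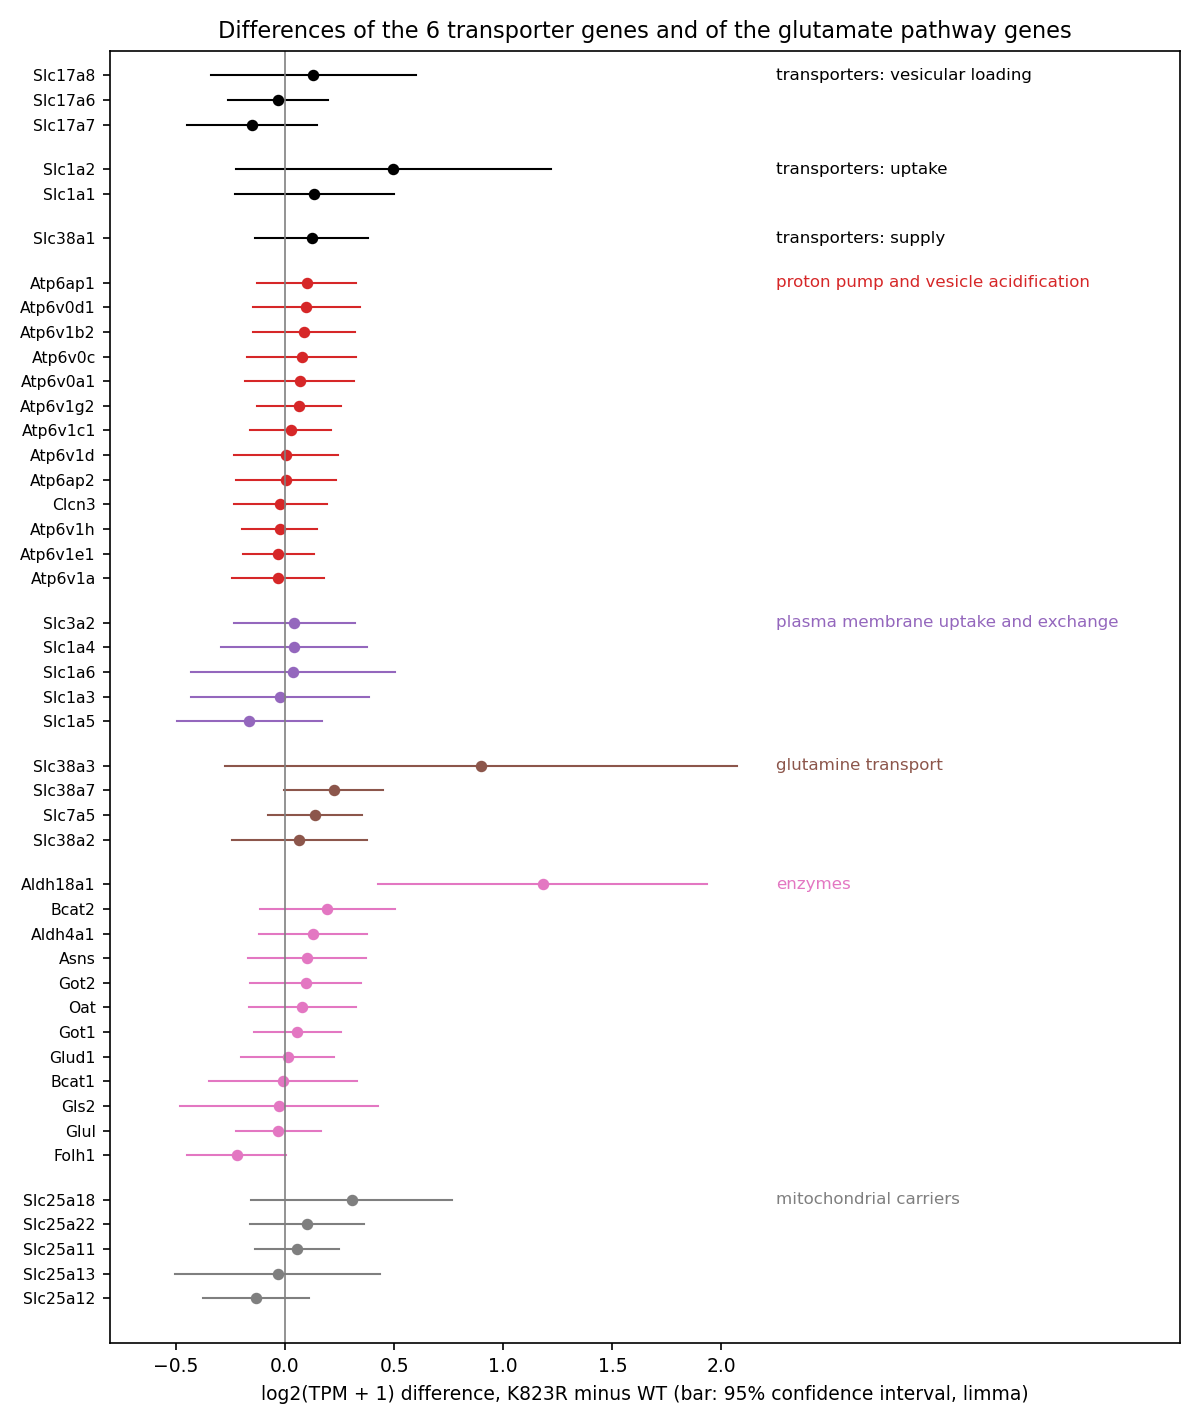
Log2(TPM + 1) difference, K823R minus WT (horizontal axis), with its 95% confidence interval from limma, for the 6 transporter genes (black) and the 39 tested pathway genes, grouped by role. All intervals of the 6 transporters include 0, and among the pathway genes the interval of Aldh18a1 lies above 0, with an adjusted p of 0.918.

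The enzymes that make and remove glutamate held the widest difference of the pathway. Aldh18a1, which encodes the enzyme that turns glutamate into a precursor of proline and ornithine, stood at 13.39 and 20.94 TPM (WT) and at 31.93 and 48.30 TPM (K823R). The libraries spread widely within each group, and the groups did not overlap. K823R minus WT came to 1.18 on the log2 scale (SE 0.29, 95% interval 0.43 to 1.93, limma unadjusted p = 0.0106 and adjusted p = 0.918). It was the 1 gene of the 39 tested pathway genes with an unadjusted limma p below 0.05, a level that 4.76% of all genes tested reached. Its difference ran from 0.88 to 1.49 when each library was left out in turn. Glul, the gene of glutamine synthetase in glia, averaged 365 ± 13.6 TPM for WT and 358 ± 18.3 TPM for K823R (SD, n = 2 each; log2 difference -0.030, limma adjusted p = 0.973). Folh1, the gene of a peptidase that frees glutamate from N-acetylaspartylglutamate, stood at 19.97 and 19.56 TPM (WT) and at 17.02 and 16.61 TPM (K823R; log2 difference -0.22, SE 0.086, limma adjusted p = 0.918), and its groups did not overlap.

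Among 107 tested pathway and marker genes, those closest to each transporter over the 4 libraries were found by the root-mean-square difference of centred log2(TPM + 1). This measure weighs the size of the changes as well as their shape. For Slc17a6 they were the sodium channel gene Scn9a (0.013) and Uchl1 (0.017), both from the pan-neuronal list. For Slc17a7 they were Slc25a12 (0.045) and the synaptic gene Snap25 (0.052). For Slc17a8 they were the amino acid exchanger gene Slc7a5 (0.025) and the proton pump gene Atp6ap1 (0.027). For Slc1a1 they were the proline catabolism gene Aldh4a1 (0.020) and Slc7a5 (0.039), and for Slc38a1 they were Aldh4a1 (0.020) and the neuronal splicing factor gene Rbfox3 (0.021). For Slc1a2 they were the collagen genes Col1a1 (0.041) and Col1a2 (0.066) of the fibroblast list. For scale, the transporters' own root-mean-square spread about their means was 0.062 for Slc17a6, 0.125 for Slc17a7 and 0.085 for Slc17a8. It was 0.071 for Slc1a1, 0.31 for Slc1a2 and 0.083 for Slc38a1. With 4 libraries these likenesses are descriptions, since the profiles have few points and share their totals.

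**Figure D4:**
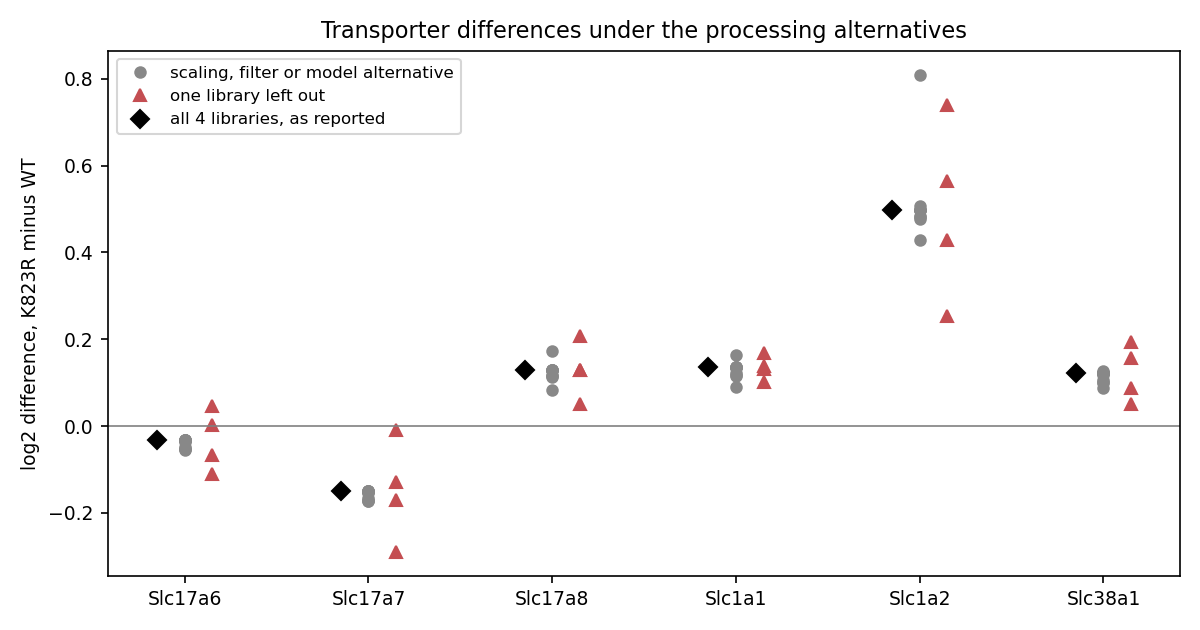
Log2 difference of each of the 6 transporter genes, K823R minus WT (vertical axis), with all 4 libraries (diamonds), under scaling, filter and model alternatives (circles) and with a library left out (triangles). Slc17a6 crosses 0 when WT replicate 1 or K823R replicate 2 is left out, and the other 5 stay on their side of 0.

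As to the series as a whole, each library had 21838 to 22119 genes above 0, and the libraries correlated across genes at 0.969 within WT, 0.968 within K823R and 0.965 to 0.969 between groups. Genes are not independent replicates. Trpv1, which carries the codon change, stood at 39.17 and 30.62 TPM (WT) and at 40.92 and 35.01 TPM (K823R; limma adjusted p = 0.938), and TPM values do not show the codon. The 1 gene past the adjusted threshold was the pseudogene Gm43110, named here because it was the only one, after its values were seen.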

How the data were processed

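Poly(A) RNA from ganglia was fragmented, copied with random hexamers and sequenced in pairs, per the labels' protocols. Tools named in the submitters' processing notes, with no role given, are RSEM, HISAT2, edgeR and fastp 0.19.5, and the build is GRCm38.p6. The annotation release and the strand setting are not stated there. The deposited values are TPM for 4 libraries, beside the authors' group means, which were not used, and a gene length column. TPM keeps no depth, so no counting interval is given.

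Genes averaging 1 TPM or more were kept. Limma 3.58.1 in R 4.3.3 (variance trend, two-sided) was fitted on log2(TPM + 1), which understates changes of low genes, and was tested on simulated data. All members and lists were chosen with earlier results of these data known. One pathway gene and one brainstem marker are not reported here and were taken out of their lists. Named pathway genes were the other 4 set in the plan and up to 3 with the smallest p in each direction. Of each marker list set beside a transporter, the 2 with the highest mean TPM were named, and other marker genes were added after their values were seen. Of all listed genes, Fam19a4, an older symbol of Tafa4, matched no row. Sequences and coordinates come from GENCODE M21 transcripts on GRCm38, aligned with Biopython 1.88. Figures used matplotlib 3.10.9.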

Additional observations from a re-analysis of the deposited data

How the results depend on the processing

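Of 87 values of the 6 transporter differences under the alternatives, 85 kept their direction and 0 passed the threshold. The 2 that reversed were those of Slc17a6 without WT replicate 1 (0.046) and without K823R replicate 2 (0.0025), in a leave-one-out range of -0.11 to 0.046. The cause was not tested. With no filter, with a replicate block, with pan-neuronal scaling and without a variance trend 0 genes passed limma's threshold. The same count of 0 held without each replicate in turn (range 0 to 0), and 574 to 1210 genes had an unadjusted p under 0.05 in these fits. Among genes averaging 10 TPM or more 2 passed, and with robust empirical Bayes 4. The astrocyte median was 0.14 among genes averaging 10 TPM or more, and 0.14 to 0.44 with a library left out. Leaving out a library gave -0.015 to 0.12 for the pathway median, -0.079 to 0.11 for the pan-neuronal median and -0.073 to -0.063 for the myelinated neuron median. The last was -0.086 with upper-quartile, -0.092 with median-of-ratios and -0.089 with pan-neuronal scaling, and -0.083 with quantile normalization. Same-numbered libraries deviated together at a correlation of 0.050, and nothing in the labels says that a number marks a shared litter, so the replicate block pairs by number only. With the replicate block the log2 differences were the same, the adjusted p of the 6 transporters stayed above the threshold, and the count of genes past it went from 1 to 0. Slc17a8, Slc1a1 and Slc1a2 have no value under the filter of 10 TPM, which removes them. With unknown depth, values near 1 TPM, such as those of Slc1a2, have the least certain precision.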
